A study of Mus musculus with 16 samples.

Results

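The genes described here are 50 mouse genes of amino acid breakdown, the urea cycle and serine and asparagine synthesis. They were taken as a named list in 11 pathways, and a gene was found on the array by its symbol in the scanner files. All 50 were among the 36518 gene symbols or names on the array. A value on every array was available for 48 of them, out of 24357 genes tested. Hal and Hpd lacked a usable spot on 1 array each and are given separately.

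Liver RNA was measured on 16 Agilent arrays of 1 colour, each from 1 animal, to ask how the absence of Lcn2, the gene of the secreted protein lipocalin 2, alters the liver's response to injury. All mice were BALB/c males aged 6 to 8 weeks at the start. The 4 groups were wild type (WT) controls (n = 4), WT mice given carbon tetrachloride (CCl4, n = 5), Lcn2-/- controls (n = 3) and Lcn2-/- mice given CCl4 (n = 4). CCl4 is a solvent that hepatocytes turn into a toxic radical. It was injected at 0.5 ml/kg, 2 times per week for 4 weeks, and the livers were collected 48 h later than the final injection. Controls received corn oil. The Lcn2 deletion is constitutive and not restricted to 1 cell type. It was made in a 129/Ola by C57BL/6 background and backcrossed to BALB/c. Whether segments of the earlier background remain was not tested.

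Hepatocytes take up amino acids from portal blood, strip off the amino group through aminotransferases and deaminases, and burn the carbon skeletons or send them to glucose. The ammonia is captured by the urea cycle, which begins in mitochondria and ends in the cytosol with the release of urea. Many of these enzymes are most abundant in periportal hepatocytes, at the end of the lobule where blood enters. CCl4 mostly damages hepatocytes around the central vein, where it is activated.

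Signals were quantile normalized between arrays and are given as log2 values, and every difference is on this log2 scale, where 1 is a doubling. A gene is said to rise, fall or be called when its adjusted p from limma, a linear model fitted over all genes tested, was under 0.05. Between 51.6% and 60.9% of spots per array were well above background. The probes chosen for the 48 members were well above background on 16 of 16 arrays, and 0 were saturated. Lcn2 itself lay between 13.79 and 17.57 on WT arrays and between 10.47 and 12.25 on Lcn2-/- arrays, without overlap. Of 10 hepatocyte markers, 9 were tested, 0 were called in either CCl4 response, and their summed signal stayed between 21.60 and 21.79 on every array. The brightest probes weigh most in this sum of linear signals, and quantile normalization sets the highest values alike on all arrays. The sum can therefore not show whether hepatocyte content was steady. In bulk liver, fewer cells of a type and less RNA per cell cannot be told apart.

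Features of the arrays bear on every result. Controls and WT CCl4 1 were on slide 1 and the other CCl4 arrays on slide 2, so slide and treatment were split by WT CCl4 1 alone. Within slides, Lcn2-/- arrays and WT CCl4 1 shared the second tier, and the other WT arrays the first. WT CCl4 5 and Lcn2-/- CCl4 4, both in column 4 of slide 2, stood apart together. Their deviations from their group means correlated at 0.64 over 24357 genes, against -0.375 to 0.252 for the other 19 pairs of a WT and an Lcn2-/- CCl4 array. Of those, the pairs that shared column 1, 2 or 3 of slide 2 correlated at 0.162, 0.219 and 0.137. Among controls, WT control 3 and Lcn2-/- control 3 deviated together (0.552). Calls lost or gained without either pair of arrays are given with the genes.

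In WT livers, 12 of the 48 members (25%) were called, 10 higher and 2 lower under CCl4, against 16.8% of all genes tested (8.01% higher and 8.8% lower). In Lcn2-/- livers 9 members (18.8%) were called, all 9 higher, against 12.2% of all genes (6.57% higher and 5.61% lower). The rises called in both genotypes were those of Gls2, Mat1a, Csad and Gpt2. Called in WT and not in Lcn2-/- were Asl, Sds, Sdsl, Got1, Psat1 and Phgdh, with falls of Kmo and Ivd, and called in Lcn2-/- and not in WT were Uroc1, Gnmt, Aldh4a1, Gpt and Bckdha. All 17 genes called in either genotype had the same sign in both. The share with the same sign over all genes was not counted, so this is not shown to be particular to the members. The largest called rise was 2.90-fold, in Csad. The median difference over the members was 0.181 in WT and 0.311 in Lcn2-/-, against -0.0315 and -0.0226 over all genes. Scaling each array to its 75th percentile moved the median of all genes to -0.164 in WT and -0.143 in Lcn2-/-, and the members' medians to -0.115 and 0.163, so the sign of the WT median rests on the normalization. With 1 array left out, the WT median was lowest without WT control 3, at 0.0857, and the Lcn2-/- median was lowest without Lcn2-/- CCl4 1, at 0.183. Under that scaling 8 of 48 members were called in WT, against 21.1% of all genes, and 1 in Lcn2-/-, Csad, against 13.3%. The WT calls were 5 higher (Sds, Mat1a, Csad, Psat1 and Phgdh), and Kmo, Bhmt and Prodh lower. The members' share of calls was then below that of all genes in both genotypes. All 12 genes called in WT had WT CCl4 1, the CCl4 array on the controls' slide, beyond every WT control in the called direction. The calls themselves used this array, so this is a description and no test of slide. Of the 32 members with a WT difference above 0, which also used it, 26 had WT CCl4 1 above the WT control mean.

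The number of calls rested on single arrays, as 1 array at a time was left out of 16. In WT it was 6 of 48 without WT control 1 and 6 without WT control 2, where 10.3% and 10.6% of all genes were called. In Lcn2-/- it was 4 without Lcn2-/- control 1, 3 without Lcn2-/- control 2 and 5 without Lcn2-/- CCl4 1, where 6.96%, 6.91% and 9.97% of all genes were called. In these fits the members' share was near that of all genes. The calls of Csad and Gls2 in both genotypes and those of Sds, Mat1a and Gpt2 in WT held whichever array was left out. The calls lost most often were those of Ivd (12 of 16) and Asl (11 of 16) in WT and of Gpt (9 of 16) in Lcn2-/-. With slide as a block, a fit in which WT CCl4 1 alone links treatment to slide, the WT calls were Sds, Csad, Psat1, Phgdh and Kmo, and the Lcn2-/- calls were Psat1 and Phgdh, which were highest in WT on WT CCl4 1. In that fit Psat1 was 2.92 in WT and 3.1 in Lcn2-/-, Phgdh was 3.51 and 3.71, and Kmo was -1.03 in WT. Tier could not be added once slide was in the model, so the fit named slide and tier is the same fit and none adjusted for both.

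**Figure D1:**
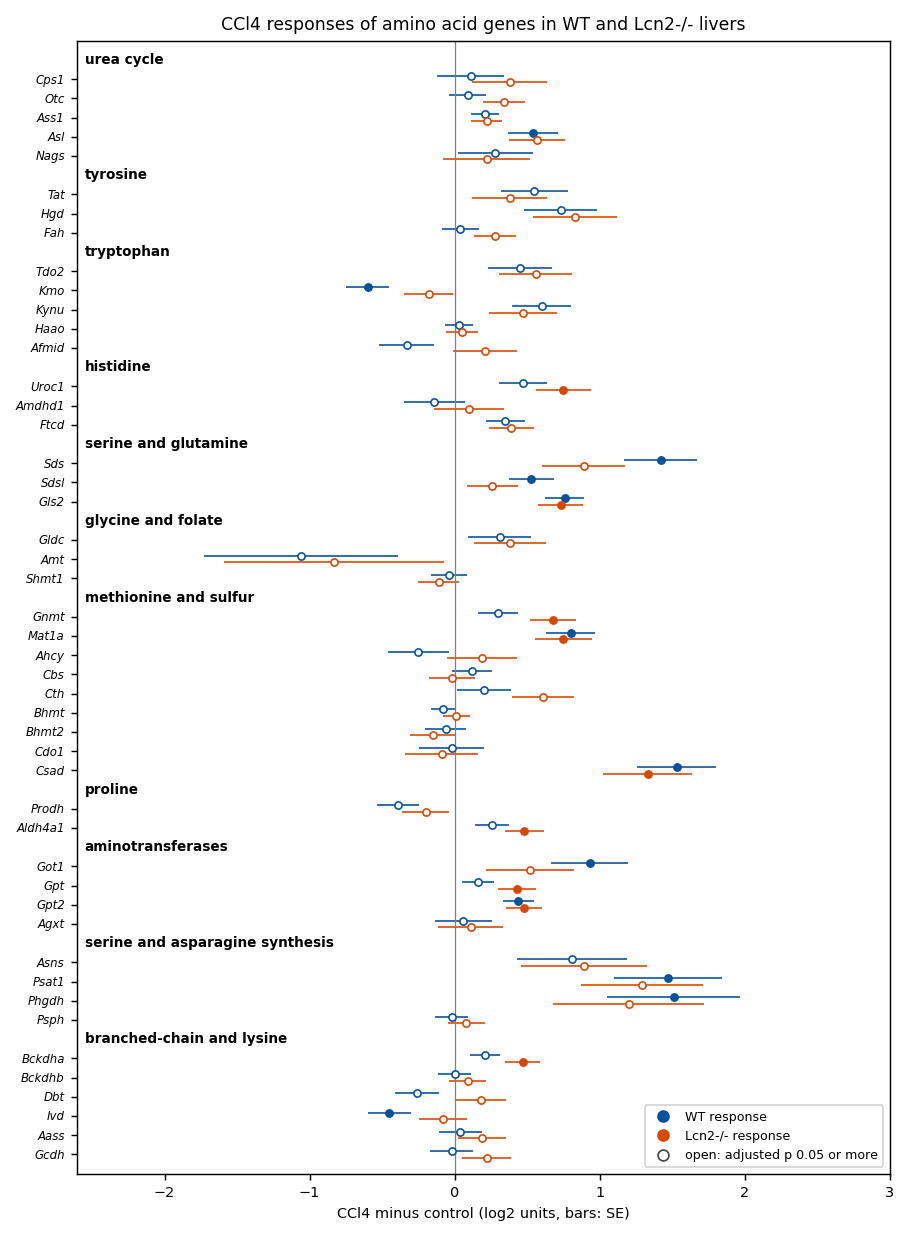
Difference between CCl4 and control livers (log2 units, horizontal axis, bars are SE) for tested members by pathway, in WT (blue) and Lcn2-/- (orange), with filled points for adjusted p under 0.05. Over all 48 tested members, after quantile normalization 32 WT values and 39 Lcn2-/- values were above 0, against 18 and 34 after scaling to the 75th percentile, and Csad, Psat1, Phgdh and Sds lie furthest to the right in WT.

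The urea cycle had 6 tested members, and 1 of them rose, Asl in WT. Asl, argininosuccinate lyase, splits argininosuccinate into arginine and fumarate (probe at chr5:130487964-130488549, mm9). Its signal was 15.24, 15.31, 15.41 and 15.54 in WT controls and 16.25, 15.83, 15.55, 15.92 and 16.01 under CCl4. In Lcn2-/- livers it was 15.80, 15.67 and 16.04 in controls and 16.90, 16.10, 16.45 and 16.17 under CCl4. CCl4 livers lay above the controls without overlap in both genotypes, with a difference of 0.54 (SE 0.17, adjusted p 0.0438) in WT and 0.57 (SE 0.194, adjusted p 0.0711) in Lcn2-/-. The WT call was lost with slide as a block (0.88, adjusted p 0.0819), with tier as a block (0.45, adjusted p 0.0987) and without WT control 1 (0.49, adjusted p 0.129). It was also lost without the third control of both genotypes (0.55, adjusted p 0.0589) and without WT CCl4 5 and Lcn2-/- CCl4 4 (0.51, adjusted p 0.073), and in 19 of 32 alternatives in all.

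Nags makes N-acetylglutamate, the activator that carbamoyl phosphate synthetase needs (probe at chr11:102009515-102009574). Its signal was 12.72, 12.36, 12.60 and 13.35 in WT controls and 13.56, 12.89, 12.74, 13.32 and 12.68 under CCl4. Nags in Lcn2-/- livers was 13.02, 12.52 and 13.08 in controls and 13.51, 13.17, 13.28 and 12.41 under CCl4. The groups overlapped in both genotypes, with differences of 0.28 (SE 0.26, adjusted p 0.507) and 0.22 (SE 0.297, adjusted p 0.687). Without WT CCl4 5 and Lcn2-/- CCl4 4, the lowest CCl4 livers of their groups, they were 0.37 (adjusted p 0.31) and 0.44 (adjusted p 0.313), and the Lcn2-/- difference was 0.04 without Lcn2-/- control 2. With 1 array left out the WT difference of Nags ranged from 0.15 to 0.48. Cps1, the entry enzyme, differed by 0.11 in WT and 0.38 in Lcn2-/-, and Otc, the ornithine transcarbamylase that follows it, by 0.09 and 0.34, none of them called. A second Otc probe differed by 0.30 (adjusted p 0.284) and 0.48 (adjusted p 0.148). Ass1, which joins citrulline and aspartate, differed by 0.21 (SE 0.0949, adjusted p 0.144) in WT and 0.22 (SE 0.108, adjusted p 0.209) in Lcn2-/- at its brighter probe. Its other probe rose by 0.48 (adjusted p 0.0359) and 0.55 (adjusted p 0.0445) in a fit over every probe, so the probes of Ass1 disagree on the call.

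WT CCl4 5 and Lcn2-/- CCl4 4 stood apart for several members. Of the 48 members, 7 were lower on both of these arrays than on every other CCl4 array, among them Ass1, Nags, Gldc, Amt, Cdo1 and Bckdhb, and 3 were higher on both (Uroc1, Ftcd and Gcdh). The same count over all genes was not made, and these arrays also deviated together over all genes (0.64). The counts therefore describe the 2 arrays and are not shown to be particular to the members. Cdo1, the dioxygenase that oxidizes cysteine, is given on every array as an example, a choice made after its values were seen. It measured 17.01, 17.18, 16.98 and 17.27 in WT controls and 16.90, 17.22, 17.33, 17.37 and 16.64 in WT CCl4 livers. The Lcn2-/- values were 17.09, 17.08 and 16.87 in controls and 17.33, 17.30, 16.93 and 16.12 under CCl4. The 2 arrays lay at 16.64 and 16.12, while the other 7 CCl4 livers lay between 16.90 and 17.37. The differences were -0.02 (SE 0.223, adjusted p 0.972) in WT and -0.09 (SE 0.254, adjusted p 0.856) in Lcn2-/-, and without those 2 arrays 0.10 (adjusted p 0.667) and 0.18 (adjusted p 0.492). Over the 48 members the deviations of these 2 arrays correlated at 0.881, against -0.774 to 0.504 in the other pairs, as a description of arrays that share a slide and a column. Without these arrays Ass1, Uroc1, Ftcd, Bckdhb and Gcdh kept their side of the threshold. In WT and Lcn2-/- their differences were then 0.24 and 0.28 for Ass1, 0.37 and 0.63 for Uroc1, and 0.27 and 0.28 for Ftcd. They were 0.04 and 0.13 for Bckdhb, and -0.12 and 0.13 for Gcdh. Over the 48 members, 10 were then called in WT (7 higher, 3 lower), against 17.1% of all genes, and 10 in Lcn2-/-, against 12.7%.

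**Figure D2:**
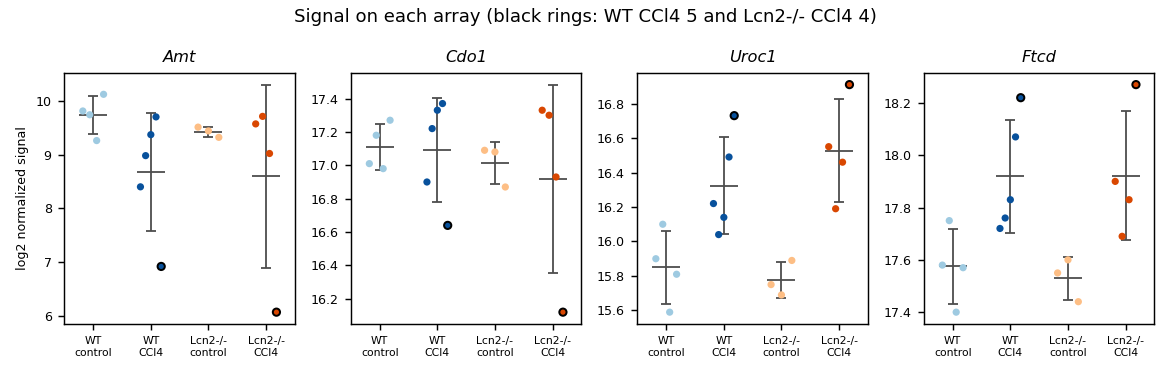
Signal on each array (log2, vertical axis, scaled for each gene) of Amt, Cdo1, Uroc1 and Ftcd in the 4 groups, with the group mean and SD as bars and black rings on WT CCl4 5 and Lcn2-/- CCl4 4. The ringed arrays are the lowest of all CCl4 arrays for Amt and Cdo1 and the highest for Uroc1 and Ftcd.

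The enzymes that take nitrogen off serine and glutamine rose in WT livers, 3 of 3, and 1 of 3 rose in Lcn2-/- livers. Sds, serine dehydratase, turns serine into pyruvate and ammonia (probe at chr5:120933105-120933164). Sds measured 14.76, 15, 14.45 and 14.93 in WT controls and 16.49, 15.68, 15.98, 16.51 and 16.37 under CCl4. Among Lcn2-/- livers it measured 15.39, 15.35 and 16.29 in controls and 17.16, 16.44, 16.56 and 16.11 under CCl4. The WT groups did not overlap, and the rise was 1.42 (SE 0.251, adjusted p 0.00137), or 2.68-fold. The Lcn2-/- groups overlapped through control 3 at 16.29, and the difference of 0.89 (SE 0.286, adjusted p 0.0572) was not called. It was called without the third control of both genotypes (1.20, adjusted p 0.0124) and without the 2 fourth-column arrays (1.04, adjusted p 0.0412). Its paralog Sdsl, serine dehydratase-like, rose by 0.53 (SE 0.153, adjusted p 0.0281) in WT, where it was called, and differed by 0.26 (SE 0.174, adjusted p 0.353) in Lcn2-/-. The WT call of Sdsl was lost in 8 of 32 alternatives, among them the fit without the fourth-column arrays (0.53, adjusted p 0.0525). It was also lost without WT control 2 (0.48, adjusted p 0.091), WT control 4 (0.55, adjusted p 0.0512) or WT CCl4 1 (0.45, adjusted p 0.0656).

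Gls2, the liver form of glutaminase, releases ammonia from glutamine in the mitochondria of periportal cells (probe at chr10:127646830-127646889). Gls2 measured 16.67, 16.66, 16.33 and 16.58 in WT controls against 17.18, 17.17, 17.16, 17.57 and 17.52 with CCl4. The Lcn2-/- arrays gave 16.59, 16.61 and 16.85 in controls against 17.73, 17.37, 17.23 and 17.33 with CCl4. Neither genotype's groups overlapped. The rise was 0.76 (SE 0.134, adjusted p 0.00138) in WT and 0.73 (SE 0.153, adjusted p 0.00611) in Lcn2-/-, 1.69-fold and 1.66-fold. Both calls were lost under 75th percentile scaling, at 0.46 (adjusted p 0.0622) and 0.55 (adjusted p 0.0722), and with slide as a block, at 0.62 (adjusted p 0.141) and 0.55 (adjusted p 0.348).

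Of the 4 aminotransferases, 2 rose in WT (Got1 and Gpt2) and 2 in Lcn2-/- (Gpt and Gpt2). Got1, the cytosolic aspartate aminotransferase, moves amino groups between glutamate and aspartate (probe at chr19:43574278-43574337). Got1 measured 16, 15.95, 15.72 and 16.34 in WT controls and 16.97, 16.53, 16.40, 17.33 and 17.40 in WT CCl4 livers. For Lcn2-/- livers the values were 16.20, 15.90 and 17.09 in controls and 17.41, 16.76, 16.66 and 16.84 under CCl4. The WT groups did not overlap, with a rise of 0.93 (SE 0.268, adjusted p 0.0286), while in Lcn2-/- control 3 at 17.09 lay among the CCl4 livers and the difference was 0.52 (SE 0.305, adjusted p 0.292). Without Lcn2-/- control 3 it was 0.87 (adjusted p 0.0737), and without Lcn2-/- control 2 it was 0.27. The WT call was lost without the 2 fourth-column arrays (0.81, adjusted p 0.0712). It was also lost without any 1 of WT controls 1, 2 and 3 and WT CCl4 1, 4 and 5, with adjusted p of up to 0.0744.

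Gpt2, the mitochondrial alanine aminotransferase (probe at chr8:88050856-88050915), measured 15.29, 15.25, 15.33 and 15.09 in WT controls and 15.67, 15.42, 15.74, 15.79 and 15.79 under CCl4. On Lcn2-/- arrays it was 15.63, 15.39 and 15.34 in controls and 16.01, 15.91, 16.06 and 15.73 after CCl4. Both genotypes separated, by 0.44 (SE 0.109, adjusted p 0.0129) in WT and 0.48 (SE 0.124, adjusted p 0.0222) in Lcn2-/-. The WT call was lost under 75th percentile scaling and with slide or slide and tier as blocks. Over all alternatives the lowest WT difference was 0.25. The Lcn2-/- call was lost in 9 of 32 alternatives, among them the fit without the third controls (0.42, adjusted p 0.0758) and those without Lcn2-/- control 2 or 3 or Lcn2-/- CCl4 1 or 3 (adjusted p of up to 0.0914). Its paralog Gpt, the cytosolic form, differed by 0.16 (SE 0.112, adjusted p 0.358) in WT and rose by 0.43 (SE 0.128, adjusted p 0.0399) in Lcn2-/-. This call of Gpt was lost in 16 of 32 alternatives, with 0.37 (adjusted p 0.0954) without the third controls and 0.44 (adjusted p 0.0558) without the fourth-column arrays. It was also lost with column on the slide as a block. Agxt, which removes glyoxylate with alanine as the donor, differed by 0.06 and 0.11 and was not called.

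Of the 9 tested members that handle methionine and sulfur, 2 rose in WT (Mat1a and Csad) and 3 in Lcn2-/- (Mat1a, Csad and Gnmt). Csad, cysteine sulfinic acid decarboxylase, makes hypotaurine on the way to taurine (probe at chr15:102007569-102007628). Csad gave 14.43, 13.98, 14.04 and 13.92 in WT controls and 16.15, 15.74, 15.75, 14.97 and 15.53 after CCl4. The Lcn2-/- livers gave 14.28, 14.46 and 13.26 as controls and 15.81, 14.95, 15.44 and 15.12 after CCl4. Every CCl4 liver lay above every control of its genotype. The rise was 1.53 (SE 0.27, adjusted p 0.00134) in WT, or 2.9-fold, and 1.33 (SE 0.308, adjusted p 0.0113) in Lcn2-/-, or 2.52-fold. Lcn2-/- control 3, at 13.26, lay below the other controls of its group at 14.28 and 14.46, and without the third control of both genotypes the Lcn2-/- rise was 0.96 (adjusted p 0.0489). The Lcn2-/- call of Csad was lost with slide or slide and tier as blocks and with only the groups compared in the fit.

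Mat1a makes S-adenosylmethionine, the methyl donor of the cell, in adult hepatocytes (probe at chr14:41937140-41937199). Mat1a was 15.98, 16.32, 16.32 and 16.44 in WT controls and 17, 16.88, 16.89, 17.32 and 17.25 in WT CCl4 livers. It was 16.54, 16.28 and 16.52 in Lcn2-/- controls and 17.64, 17.34, 17.06 and 16.73 with CCl4. The groups did not overlap in either genotype, and the rise was 0.80 (SE 0.17, adjusted p 0.00508) in WT and 0.75 (SE 0.194, adjusted p 0.0212) in Lcn2-/-. The Lcn2-/- call of Mat1a was lost without Lcn2-/- control 1 (0.79, adjusted p 0.0539), Lcn2-/- control 2 (0.66, adjusted p 0.098) or Lcn2-/- CCl4 1 (0.60, adjusted p 0.0533). Gnmt, which spends S-adenosylmethionine on methylating glycine, differed by 0.30 (SE 0.139, adjusted p 0.155) in WT and rose by 0.68 (SE 0.159, adjusted p 0.0121) in Lcn2-/-, a call lost without Lcn2-/- control 1 (0.64, adjusted p 0.0584) and, under 75th percentile scaling, at 0.22 (adjusted p 0.517). Cth, the cystathionine lyase that yields cysteine, differed by 0.20 (SE 0.186, adjusted p 0.506) and 0.61 (SE 0.212, adjusted p 0.078), and its Lcn2-/- groups did not overlap. Without the 2 fourth-column arrays Cth was called in Lcn2-/- at 0.73.

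The remaining members of the group were not called in either response after quantile normalization. Cbs, which forms cystathionine from homocysteine, differed by 0.12 in WT and -0.02 in Lcn2-/-, and Cdo1, which makes the substrate of Csad, by -0.02 and -0.09. Bhmt, which remethylates homocysteine with betaine, differed by -0.08 and 0.01, but was called lower in WT under 75th percentile scaling (-0.59, adjusted p 0.0199). Its paralog Bhmt2 differed by -0.06 and -0.15. Ahcy, which hydrolyses S-adenosylhomocysteine, differed by -0.25 (SE 0.211, adjusted p 0.448) in WT and 0.19 (SE 0.24, adjusted p 0.659) in Lcn2-/- and is taken up with the comparison of genotypes.

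The largest rises beside Csad and Sds were in the synthesis of serine, 2 of 4 members in WT and 0 of 4 in Lcn2-/-. Phgdh, phosphoglycerate dehydrogenase, catalyses the first step from glycolysis to serine (probe at chr3:98117215-98117274). Phgdh measured 6.86, 6.94, 7.91 and 7.20 in WT controls and 10.74, 8.60, 8.36, 7.94 and 8.03 under CCl4. In Lcn2-/- livers it was 7.02, 7.34 and 7.70 in controls and 8.36, 8.86, 8.61 and 8.39 after CCl4. CCl4 livers lay above controls in both genotypes, by 1.51 (SE 0.456, adjusted p 0.0359) in WT and 1.20 (SE 0.519, adjusted p 0.152) in Lcn2-/-. WT CCl4 1, at 10.74, lay far above the other WT CCl4 livers at 7.94 to 8.60, and without it the differences were 1.00 (adjusted p 0.0132) and 1.20 (adjusted p 0.00849), both called. The WT call was lost without WT control 1 (1.38, adjusted p 0.11), WT control 2 (1.41, adjusted p 0.101), WT control 4 (1.50, adjusted p 0.0707) or WT CCl4 2 (1.54, adjusted p 0.0588). It was also lost with only the groups compared in the fit (adjusted p 0.0967), with column on the slide as a block (1.44, adjusted p 0.0592) and with no filter on dim probes (adjusted p 0.0578). A second Phgdh probe was not well above background on 4 of 16 arrays, and no difference is given for it.

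Psat1, the aminotransferase of the next step (probe at chr19:15979622-15979681), measured 7.73, 7.81, 8.90 and 7.87 in WT controls and 11, 9.27, 9.21, 8.76 and 9.51 after CCl4. Its Lcn2-/- values were 7.69, 7.17 and 7.97 in controls and 8.96, 8.96, 8.86 and 8.82 after CCl4. WT control 3 at 8.90 reached into the WT CCl4 range, while the Lcn2-/- groups did not overlap. The rise was 1.47 (SE 0.37, adjusted p 0.0141) in WT, and the difference in Lcn2-/- was 1.29 (SE 0.421, adjusted p 0.0608). Without WT CCl4 1, again the highest WT liver at 11, the differences were 1.11 (adjusted p 0.0103) and 1.29 (adjusted p 0.00799), both called. Without the third control of both genotypes they were 1.75 (adjusted p 0.00505) and 1.47 (adjusted p 0.0427). The WT call was lost without WT control 1 (1.36, adjusted p 0.0529) and with only the groups compared in the fit (adjusted p 0.0519). A second Psat1 probe was well above background on 3 arrays, and no difference is given for it.

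Psph, the phosphatase that completes serine synthesis, differed by -0.02 (SE 0.112, adjusted p 0.92) in WT and 0.08 (SE 0.128, adjusted p 0.748) in Lcn2-/- and was not called. Asns, which makes asparagine from aspartate and glutamine, differed by 0.81 (SE 0.381, adjusted p 0.165) and 0.89 (SE 0.434, adjusted p 0.201) and its groups overlapped.

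**Figure D3:**
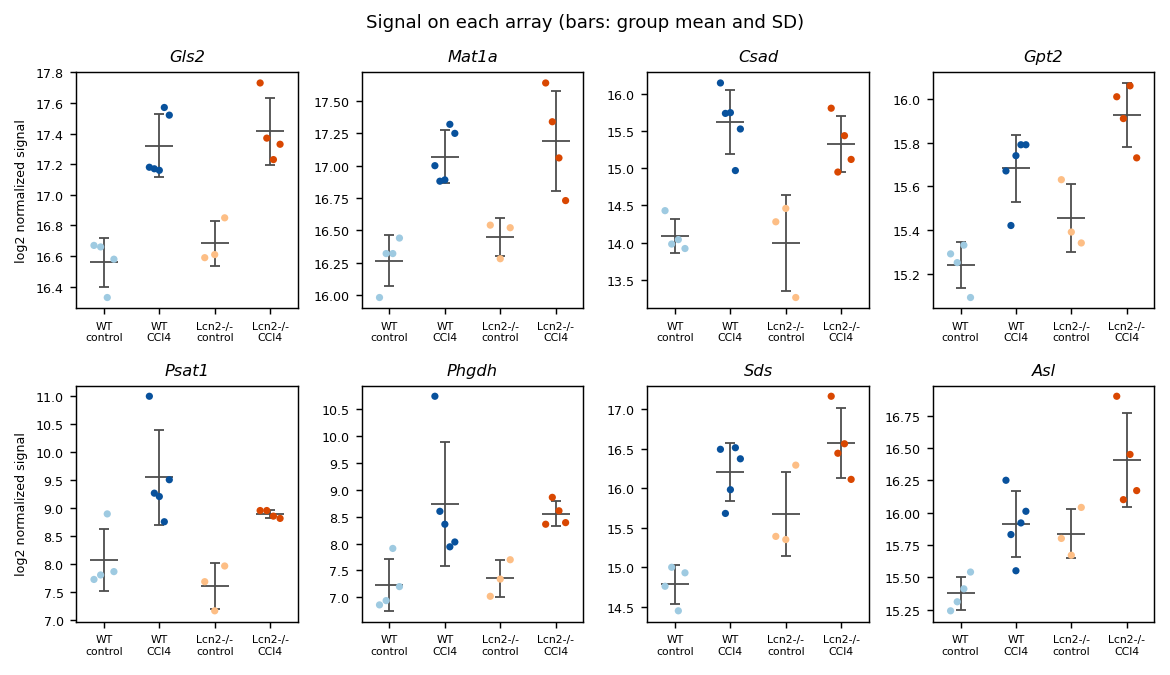
Signal on each array (log2, vertical axis, scaled for each gene) of Gls2, Mat1a, Csad, Gpt2, Psat1, Phgdh, Sds and Asl in the 4 groups, with the group mean and SD as bars. In WT the CCl4 and control points separate except for Psat1, and for Psat1 and Phgdh 1 WT CCl4 liver, at 11 and 10.74, lies above the rest.

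Genes of serine and asparagine synthesis and several aminotransferases are known targets of the transcription factor ATF4, whose binding element joins parts of a C/EBP site and an ATF site. The RefSeq promoter table (GRCm38.p6) held 38 of the 50 members, and the 250 bases before each start were searched on both strands. The letters TGATGNAAN were found in 2 of 38 promoters (5.26%), against 3.51% of 27025 promoters. The cAMP response element TGACGTCA was found in 0 of 38, against 1.62%, and the HNF1 site in 0 of 38, against 0.0629%. The 2 matches are shown with 10 bases on each side, in the direction of the gene, with the match in capitals. They lie 23 to 15 bases before the start of Asns (chr6:7693214-7693242, minus strand) and 103 to 95 bases before that of Got1 (chr19:43524690-43524718, minus strand, match on the other strand).
Asns: cccagccacaTGATGAAACttcccgcacg
Got1: cattgcattgGTTGCATCAtacaagcctc
Got1 was called in WT and Asns in neither genotype, and a match of letters is a description of the sequence alone.

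None of the 3 tested members of tyrosine breakdown was called. Hgd, homogentisate dioxygenase, opens the ring of tyrosine's breakdown product (probe at chr16:37621972-37622031). Hgd was 15.24, 14.85, 15.23 and 16.05 in WT controls and 16.46, 15.74, 15.59, 16.32 and 16.30 under CCl4. Hgd in Lcn2-/- livers was 15.42, 14.96 and 15.76 in controls and 16.57, 16.09, 16.22 and 15.96 under CCl4. The Lcn2-/- groups did not overlap and the WT groups did, with differences of 0.73 (SE 0.255, adjusted p 0.063) and 0.83 (SE 0.29, adjusted p 0.0789). Hgd was called in WT without WT control 4 (0.97, adjusted p 0.0154) or WT CCl4 3 (0.86, adjusted p 0.0386), and in Lcn2-/- in the fit without WT control 4 (adjusted p 0.0464). With column on the slide as a block Hgd was called in WT (0.68, adjusted p 0.0391). Tat, tyrosine aminotransferase, starts the pathway (probe at chr8:112523207-112523266). Tat was 16.59, 17.10, 16.65 and 16.88 in WT controls and 17.48, 17.03, 17.40, 17.30 and 17.58 under CCl4. Tat in Lcn2-/- livers was 16.93, 17.03 and 17.43 in controls and 18.39, 17.31, 17.22 and 17.13 under CCl4. The groups overlapped in both genotypes, with differences of 0.55 (SE 0.229, adjusted p 0.116) and 0.38 (SE 0.26, adjusted p 0.373). Without Lcn2-/- CCl4 1, at 18.39, the latter was 0.09, and Tat was called in WT at 0.55 (adjusted p 0.02). Fah, the last enzyme, differed by 0.04 and 0.28. Hpd, which makes homogentisate, had no usable spot on Lcn2-/- CCl4 3 and differed by 0.06 (adjusted p 0.8) and 0.45 (adjusted p 0.0763) over the other 15 arrays.

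In tryptophan breakdown 1 of 5 members was called, and it fell. Kmo, kynurenine 3-monooxygenase, stands where kynurenine is committed to further breakdown (probe at chr1:177590673-177590732). Kmo was 16.26, 16.36, 15.93 and 15.92 in WT controls and 15.09, 15.49, 15.68, 15.67 and 15.64 under CCl4. Lcn2-/- controls were at 16.03, 16.27 and 15.88 and Lcn2-/- CCl4 livers at 16.11, 15.69, 15.81 and 15.89. All WT CCl4 livers lay below all WT controls, and Kmo fell by 0.60 (SE 0.15, adjusted p 0.0133). The call was lost without WT control 1 (-0.56, adjusted p 0.0513) or WT control 2 (-0.52, adjusted p 0.0543). The Lcn2-/- groups overlapped, with a difference of -0.18 (SE 0.171, adjusted p 0.527). A second Kmo probe differed by -0.50 (adjusted p 0.103) in WT, not called.

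Kynu, kynureninase, acts beside Kmo on kynurenine and its product (probe at chr2:43459748-43459807). Kynu measured 13.34, 13.20, 13.20 and 13.81 in WT controls and 14.24, 13.71, 13.48, 14 and 14.49 under CCl4. Kynu in Lcn2-/- livers was 13.51, 13.19 and 13.76 in controls and 14.09, 13.81, 13.77 and 14.15 under CCl4. The differences were 0.60 (SE 0.205, adjusted p 0.0602) and 0.47 (SE 0.233, adjusted p 0.212), with overlap in WT and none in Lcn2-/-. Kynu was called in WT without WT control 4 (0.74, adjusted p 0.0324) or WT CCl4 3 (0.72, adjusted p 0.0237). With column on the slide as a block it was also called in WT (0.52, adjusted p 0.0148). A second Kynu probe differed by less, 0.31 (adjusted p 0.164) in WT and 0.08 (adjusted p 0.811) in Lcn2-/-. Tdo2, tryptophan dioxygenase, opens the pathway (probe at chr3:81767918-81770928). Tdo2 measured 15.95, 15.70, 15.99 and 16.66 in WT controls and 16.73, 15.95, 16.23, 16.70 and 17.01 under CCl4. Tdo2 in Lcn2-/- livers was 16.06, 15.83 and 16.11 in controls and 16.71, 16.26, 16.56 and 16.71 under CCl4. It too overlapped in WT and not in Lcn2-/-, with differences of 0.45 (SE 0.221, adjusted p 0.186) and 0.56 (SE 0.252, adjusted p 0.17). Haao, which opens the ring after Kmo and Kynu, differed by 0.03 and 0.05.

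Afmid, the formamidase that releases kynurenine (probe at chr11:117700730-117700789), was among the 3 members with the lowest p for a difference of the responses. Afmid was 13.08, 13.32, 12.93 and 13.43 in WT controls and 13.14, 12.48, 12.99, 13 and 12.69 under CCl4. Afmid in Lcn2-/- livers was 13.49, 13.33 and 13.14 in controls and 13.79, 13.74, 13.70 and 12.91 under CCl4. Lcn2-/- CCl4 4 at 12.91 lay below the other 3 of its group at 13.70 to 13.79. The differences were -0.33 (SE 0.191, adjusted p 0.266) in WT and 0.21 (SE 0.218, adjusted p 0.568) in Lcn2-/-, neither called.

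Of the 3 tested members of histidine breakdown, 1 rose, Uroc1 in Lcn2-/-. Uroc1, urocanase, takes the product of histidine deamination (probe at chr6:90314337-90314396). Uroc1 was 15.90, 16.10, 15.59 and 15.81 in WT controls and 16.22, 16.04, 16.14, 16.49 and 16.73 under CCl4. The Lcn2-/- controls gave 15.75, 15.69 and 15.89 and the Lcn2-/- CCl4 livers 16.55, 16.19, 16.46 and 16.91. Separation was complete in Lcn2-/-, with a rise of 0.75 (SE 0.189, adjusted p 0.0178) that was not called without Lcn2-/- control 1 (0.74, adjusted p 0.0647) or control 2 (0.71, adjusted p 0.077), and the WT groups overlapped with a difference of 0.47 (SE 0.166, adjusted p 0.0648). Ftcd hands the formimino group of histidine to folate (probe at chr10:76052237-76052296). Ftcd was 17.58, 17.75, 17.40 and 17.57 in WT controls and 17.72, 17.76, 17.83, 18.07 and 18.22 under CCl4. Ftcd in Lcn2-/- livers was 17.55, 17.60 and 17.44 in controls and 17.90, 17.69, 17.83 and 18.27 under CCl4. The differences were 0.35 (SE 0.135, adjusted p 0.0948) and 0.39 (SE 0.154, adjusted p 0.113), and the WT value was -0.06 under 75th percentile scaling. Amdhd1, which acts between these enzymes, differed by -0.14 and 0.10. Hal, the deaminase that starts the pathway, had no usable spot on WT control 4 and differed by 0.14 (adjusted p 0.722) and 0.16 (adjusted p 0.709) over 15 arrays.

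The 3 members of glycine and folate metabolism were not called in either response. Amt and Gldc are subunits of the glycine cleavage system, which splits glycine into carbon dioxide, ammonia and a folate-bound carbon. Amt (probe at chr9:108203869-108203928) was 9.81, 9.74, 9.26 and 10.12 in WT controls and 8.40, 8.98, 9.37, 9.70 and 6.92 under CCl4. Amt in Lcn2-/- livers was 9.51, 9.44 and 9.32 in controls and 9.57, 9.71, 9.02 and 6.07 under CCl4. WT CCl4 5 and Lcn2-/- CCl4 4 were at 6.92 and 6.07, against 8.40 to 9.71 on the other CCl4 arrays. The differences of -1.06 (SE 0.668, adjusted p 0.31) and -0.83 (SE 0.76, adjusted p 0.52) became -0.62 (adjusted p 0.133) and 0.01 (adjusted p 0.991) without them. Gldc (probe at chr19:30172983-30173042) was 16.02, 15.96, 15.46 and 15.92 in WT controls and 15.85, 16.01, 16.36, 16.72 and 15.82 under CCl4. Gldc in Lcn2-/- livers was 15.35, 15.30 and 15.24 in controls and 16, 15.82, 15.86 and 15.03 under CCl4. Its groups overlapped, with differences of 0.31 (SE 0.219, adjusted p 0.365) and 0.38 (SE 0.249, adjusted p 0.353). Without the same 2 arrays they were 0.40 (adjusted p 0.153) and 0.59 (adjusted p 0.081), and without WT CCl4 4 the WT difference of Gldc was 0.17. Shmt1, which moves a carbon between serine and glycine, differed by -0.04 and -0.11.

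Of the 2 proline enzymes, Aldh4a1 rose in Lcn2-/-. Aldh4a1 turns the product of proline oxidation into glutamate (probe at chr4:139205420-139205479). Aldh4a1 was 17.07, 17.08, 16.94 and 17.16 in WT controls and 17.20, 17.22, 17.16, 17.44 and 17.59 under CCl4. Aldh4a1 in Lcn2-/- livers was 17.07, 17.06 and 16.98 in controls and 17.68, 17.28, 17.41 and 17.71 under CCl4. The Lcn2-/- groups separated, with a rise of 0.48 (SE 0.133, adjusted p 0.0291). This call was lost in 10 of 32 alternatives, among them the fit without the third controls (0.45, adjusted p 0.0756) and those without any 1 of the 3 Lcn2-/- controls or Lcn2-/- CCl4 1 or 4 (adjusted p of up to 0.0836). The highest WT control and the lowest WT CCl4 liver shared the value 17.16. The WT groups differed by 0.26 (SE 0.117, adjusted p 0.152), and by -0.05 under 75th percentile scaling. Prodh, proline dehydrogenase, is the first enzyme (probe at chr16:18071891-18071950). Prodh was 16.38, 16.29, 16.08 and 16.28 in WT controls and 15.88, 15.67, 15.48, 16.08 and 16.22 under CCl4. Prodh in Lcn2-/- livers was 16.63, 16.62 and 16.42 in controls and 16.47, 16.14, 16.32 and 16.48 under CCl4. Its differences were -0.39 (SE 0.143, adjusted p 0.0752) and -0.20 (SE 0.162, adjusted p 0.457). In WT it was called at -0.48 without the 2 fourth-column arrays and at -0.62 under 75th percentile scaling. With column on the slide as a block it was called in WT at -0.42 (adjusted p 0.0494).

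In branched-chain and lysine breakdown Ivd fell in WT and Bckdha rose in Lcn2-/-, 1 of 6 in each. Ivd, isovaleryl-CoA dehydrogenase, acts on the leucine skeleton (probe at chr2:118706998-118707057). Ivd was 14.77, 14.80, 14.48 and 14.78 in WT controls and 13.97, 13.89, 14.46, 14.42 and 14.55 under CCl4. Ivd in Lcn2-/- livers was 14.83, 14.94 and 14.74 in controls and 14.67, 14.61, 14.76 and 14.98 under CCl4. In WT it fell by 0.45 (SE 0.147, adjusted p 0.0498), just inside the threshold, with WT control 3 at 14.48 within the CCl4 range, and in Lcn2-/- it differed by -0.08 (SE 0.167, adjusted p 0.808). The WT call was lost without WT control 1 (-0.43, adjusted p 0.129) or WT control 2 (-0.42, adjusted p 0.131). It was lost in 19 of 32 alternatives in all. These were 12 of 16 fits with 1 array left out, 75th percentile scaling, no filter on dim probes, probe means, slide or tier blocks and only the groups compared.

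Bckdha and Bckdhb are the subunits of the decarboxylase that commits all branched-chain keto acids to breakdown. Bckdha (probe at chr7:26415094-26415153) was 16.53, 16.57, 16.32 and 16.57 in WT controls and 16.45, 16.67, 16.68, 16.81 and 16.91 under CCl4. Bckdha in Lcn2-/- livers was 16.64, 16.52 and 16.37 in controls and 17.05, 16.95, 16.90 and 17.04 under CCl4. The Lcn2-/- groups did not overlap, with a rise of 0.47 (SE 0.12, adjusted p 0.0188). This call was lost without the third controls (0.40, adjusted p 0.0564), without Lcn2-/- control 2 (0.48, adjusted p 0.0626) or control 3 (0.40, adjusted p 0.0699) and with the authors' log2 table (0.39, adjusted p 0.0558). With slide as a block it was 0.15 (adjusted p 0.743). The WT difference was 0.21 (SE 0.105, adjusted p 0.197), and -0.02 under 75th percentile scaling. Bckdhb differed by 0.00 and 0.09. Dbt, the transacylase of the same complex (probe at chr3:116252015-116252074), was 11.65, 11.54, 10.85 and 11.42 in WT controls and 11.01, 10.87, 11.13, 11.31 and 11.21 under CCl4. Dbt in Lcn2-/- livers was 11.37, 11.35 and 11.05 in controls and 11.60, 11.27, 11.40 and 11.49 under CCl4. Its differences were -0.26 (SE 0.154, adjusted p 0.278) and 0.18 (SE 0.176, adjusted p 0.538), neither called. Without the third controls Dbt was called in WT at -0.43 (adjusted p 0.0229). Aass, the first enzyme of lysine breakdown, differed by 0.04 and 0.19, and Gcdh, a later one, by -0.02 and 0.22.

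Whether the response depended on Lcn2 was tested as the difference of the responses, Lcn2-/- minus WT. For the members 0 of 48 were called by limma, against 0.0534% of all genes (0.0205% higher and 0.0328% lower). An unadjusted p under 0.05 was found for 0 of 48 members, the lowest being 0.0779, and for 811 of 24357 genes. The 3 lowest were Dbt at 0.44 (SE 0.234, adjusted p 1), Afmid at 0.54 (SE 0.29, adjusted p 1) and Kmo at 0.42 (SE 0.227, adjusted p 1). For Sds, called in WT and not in Lcn2-/-, the difference of the responses was -0.53, with a 95% interval of -1.35 to 0.28. For Uroc1, called in Lcn2-/- and not in WT, it was 0.28, with an interval of -0.26 to 0.82. A call in 1 genotype alone was therefore not shown to be a difference between genotypes for any member. The intervals of all 48 members held 0 and reached a median of 0.52 to each side of the estimate (0.27 to 2.17), so differences of that size could not be told from 0 with these arrays. The interval lay within -1 to 1 for 36 members.

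**Figure D4:**
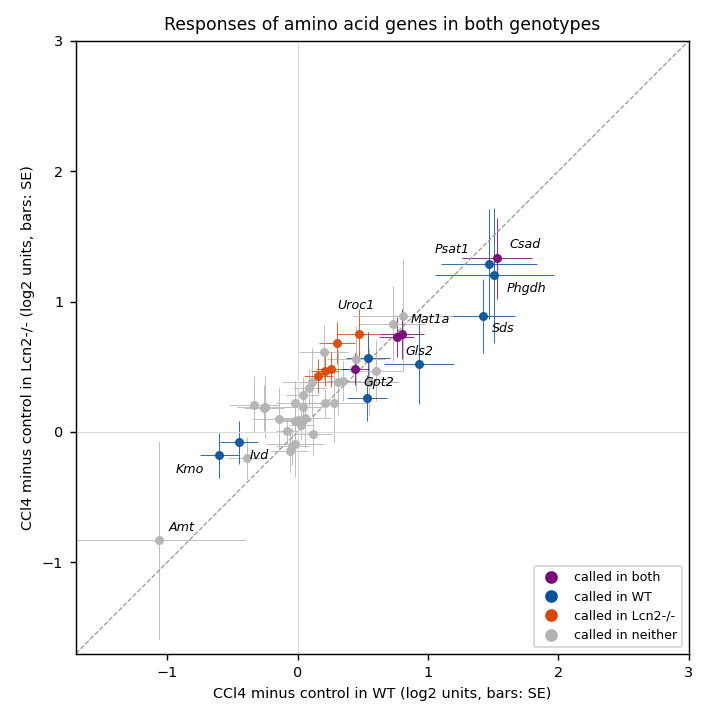
CCl4 response of tested members in WT (horizontal axis) and Lcn2-/- livers (vertical axis), both in log2 units with SE bars, colored by the genotype in which a gene was called, with the dashed line at equal responses. Over all 48 tested members the responses of 39 had the same sign after quantile normalization, and Csad, Psat1, Phgdh and Sds lie furthest to the upper right. The share with the same sign over all genes was not counted.

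Between genotypes, 2 of 48 members were called under CCl4, Ahcy higher and Psph lower in Lcn2-/-, against 0.636% of all genes (0.304% higher and 0.333% lower). In controls 1 of 48 was called, Psph, against 0.53% of all genes (0.291% lower). With tier as a block, a fit in which WT CCl4 1 alone separates tier from genotype, the members called under CCl4 were 3, all lower in Lcn2-/-. These were Psph at -1.05 (adjusted p 0.0109), Phgdh at -2.19 (adjusted p 0.0243) and Psat1 at -2.10 (adjusted p 0.0478), and WT CCl4 1 was the highest array for Phgdh and Psat1. Ahcy, S-adenosylhomocysteine hydrolase, clears the inhibitor that methyltransferases leave behind (probe at chr2:154885047-154885106). Ahcy measured 15.27, 15.13, 14.79 and 15.03 in WT controls and 14.57, 14.55, 14.89, 15.09 and 14.90 in WT CCl4 livers. Ahcy in Lcn2-/- livers was 16.23, 15.32 and 16.58 in controls and 16.35, 16.09, 16.40 and 16.09 under CCl4. Every Lcn2-/- array lay above every WT array. The difference between genotypes was 1.43 (SE 0.211, adjusted p 0.00433) under CCl4, or 2.7-fold, and 0.99 (SE 0.24, adjusted p 0.103) in controls, not called. Without Lcn2-/- control 2, the lowest of its group at 15.32, the control difference was 1.35 (adjusted p 0.00355).

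The probes of Ahcy disagreed. The other 2 probes ranged from 11.45 to 14.29 and from 11.03 to 13.63, with overlap of the genotypes, and differed under CCl4 by 0.62 (adjusted p 0.639) and 0.71 (adjusted p 0.569) in the fit over every probe. With the mean of a gene's probes the Ahcy difference was 0.92 (adjusted p 0.294). WT CCl4 1, which shared the tier of the Lcn2-/- arrays, was at 14.57 on the chosen probe, within the WT range. With tier as a block the CCl4 difference was 1.67 (adjusted p 0.0842).

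Psph (probe at chr5:130271441-130271500) measured 12.42, 12.36, 12.40 and 12.39 in WT controls and 12.68, 12.27, 12.43, 12.21 and 12.26 in WT CCl4 livers. On Lcn2-/- arrays it measured 11.61, 11.52 and 11.54 in controls and 11.74, 11.74, 11.35 and 11.71 under CCl4. Every Lcn2-/- array lay below every WT array, WT CCl4 1 at 12.68 included. Relative to WT, Lcn2-/- livers differed by -0.84 (SE 0.128, adjusted p 0.00482) in controls and -0.74 (SE 0.112, adjusted p 0.00549) under CCl4, 1.78-fold and 1.67-fold lower. At the second probe too every Lcn2-/- array lay below every WT array, with -0.95 (adjusted p 0.0405) in controls and -0.65 (adjusted p 0.115), not called, under CCl4. With only the groups compared in the fit, the CCl4 difference had an adjusted p of 0.0711.

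**Figure D5:**
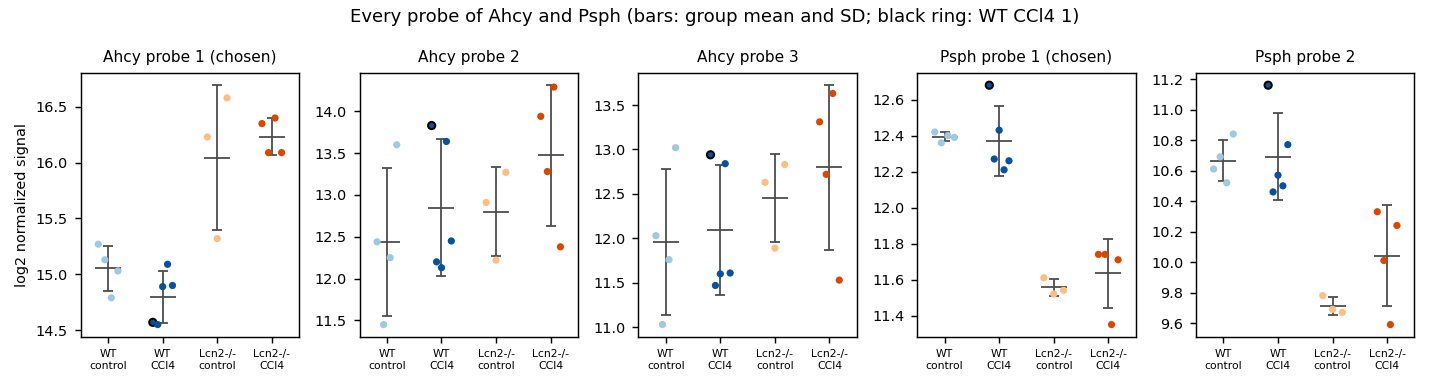
Signal on each array (log2, vertical axis, scaled for each probe) at the 3 probes of Ahcy and the 2 probes of Psph, with the group mean and SD as bars and a black ring on WT CCl4 1. The genotypes separate at the chosen Ahcy probe and at both Psph probes and overlap at the other Ahcy probes.

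Lcn2 and 4 members lie on chromosome 2. The probe of Ass1 was 0.864 Mb from that of Lcn2, and those of Kynu, Ivd and Ahcy 11.2, 86.5 and 123 Mb. Ass1, the nearest, differed between genotypes by 0.05 under CCl4 and 0.04 in controls and was not called. Psph is on chromosome 5 (probe start 130271441), as are Asl (130487964), Sds (120933105), Sdsl (120908225) and Hpd (123622237). In controls the genotypes did not overlap for Asl (0.46, adjusted p 0.504), Sds (0.90, adjusted p 0.278) and Sdsl (0.37, adjusted p 0.607), none of them called. All of these overlapped under CCl4, and Hpd differed by 0.03 in controls. Whether a shared chromosome segment bears on these differences was not tested. Among members not called, Afmid had the lowest p under CCl4, where it differed by 0.67 (SE 0.191, adjusted p 0.152), with 0.13 in controls. It was called without Lcn2-/- CCl4 4 (0.88, adjusted p 0.0265) and with array weights (0.75, adjusted p 0.0367). Asl differed between genotypes by 0.46 in controls and 0.49 under CCl4, Sds by 0.90 and 0.36, Gldc by -0.54 and -0.47, and Cps1 by 0.35 and 0.63.

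Other lists of amino acid genes and of cell types are given for comparison. Over all genes tested, 8.01% rose and 8.8% fell in WT, and 6.57% rose and 5.61% fell in Lcn2-/-. Whether any list differed from all genes was not tested. Of 53 other amino acid enzymes, 52 were tested, and 3 rose and 2 fell in WT, with 6 and 2 in Lcn2-/-. For the difference of the responses 0 of these 52 were called and 47 were above 0. Their median was 0.19, against 0.0243 over all genes. Of 20 amino acid carriers, 19 were tested, and 3 rose and 1 fell in each genotype. Among 12 ATF4 targets outside the members, 3 rose in WT and 2 in Lcn2-/-. Of 6 periportal genes outside the members, 2 rose in each genotype, and of 10 pericentral genes 3 fell in each. The summed pericentral signal was 19.96 to 20.06 in WT controls and 19.59 to 19.78 in WT CCl4 livers. In Lcn2-/- it was 19.90 to 19.97 in controls and 19.59 to 19.87 under CCl4. The periportal sums overlapped between control and CCl4 livers. Stellate cell and myofibroblast markers rose in 7 of 8 in both genotypes, with a summed signal of 14.34 to 16.21 in WT controls, 17.02 to 18.27 in WT CCl4 livers, 13.83 to 14.05 in Lcn2-/- controls and 16.69 to 17.44 in Lcn2-/- CCl4 livers. Neutrophil markers rose in 3 of 6 in WT and 0 of 6 in Lcn2-/-, with summed signals of 13.30 to 15.38 and 15.05 to 16.23 in WT and of 13.19 to 15.71 and 14.61 to 15.12 in Lcn2-/-. Their median differences were 2.13 in WT and 1.32 in Lcn2-/-. Of these 6, 0 were called in the difference of the responses and 0 between genotypes under CCl4. Of 6 lymphocyte markers tested, 0 rose and 2 fell in WT and 1 fell in Lcn2-/-. Their summed signal was 14.94 to 15.79 in WT controls and 13.60 to 14.90 in WT CCl4 livers, and 15.32 to 15.72 and 14.17 to 14.92 in Lcn2-/-. Cholangiocyte markers rose in 1 of 5 in each genotype, with sums of 11.82 to 14.33 and 14.15 to 14.81 in WT and of 11.93 to 12.86 and 13.82 to 14.96 in Lcn2-/-. Of 7 macrophage markers, 2 rose in each genotype and 1 fell in WT, and their sums overlapped between control and CCl4 livers. Of 6 endothelial markers, 1 rose in each genotype and 1 fell in WT, with sums of 15.33 to 15.74 and 14.81 to 15.32 in WT and of 15.21 to 15.56 and 15.10 to 15.24 in Lcn2-/-. The part of these cells in the members' differences was not tested.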

How the data were processed

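The authors labelled liver RNA with Cy3, hybridised each sample to 1 Agilent array and read it with Agilent Feature Extraction 10.7.3.1, and per the file headers the values are linear spot intensity, background-subtracted by that software and not normalized between arrays. A deposited table of the authors' log2 values, quantile normalized, was an alternative. It equalled the log2 of the median signal minus the median background after quantile normalization for 99.86% of values within 0.05.

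From the deposited intensity values, log2 processed signals of 59305 gene spots were quantile normalized over 16 arrays. Spots marked as outliers were then left out, and spots were averaged to 55681 probes, of which 121 lacked a value on some array and were dropped. Kept were 33014 probes whose spots were well above background on 3 or more arrays, and the probe with the highest mean was taken for each symbol, which gave 24357 genes. Probe positions are the files' own (mm9). Their place in exons or introns was not analysed here. The number of arrays limits the precision.

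Groups and replicate numbers came from the sample titles. One limma 3.58.1 model (R 4.3.3 with version 1.17.8 of its table package) with 4 group means gave 5 contrasts, each with Benjamini-Hochberg adjustment over all genes and a threshold of 0.05. The script was tested on simulated data. Probe values for genes with several probes came from the same model over every probe, and Hal and Hpd from a fit that kept probes missing on 1 array (24409 genes). Figures were drawn with matplotlib 3.10.9 in Python 3.11.15. The members, the pathways and the other lists were chosen with earlier results of these data known. Values on every array are given for the 2 members with the largest mean response in each pathway, the 3 with the lowest p in the difference of the responses and the 2 with the lowest p in each genotype comparison. Paralogs were set side by side. The values of 1 member are not reported here, though it stays in the counts.

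The labels number replicates in every group. Same-numbered WT and Lcn2-/- controls deviated together (correlations of 0.233, 0.368 and 0.552), so these numbers were taken to pair the controls, on the evidence of the data alone. In the other contrasts the correlations of same-numbered arrays did not all exceed 0.1. All controls lay on slide 1, and CCl4 arrays that shared a column of slide 2 also correlated (0.162, 0.219, 0.137 and 0.64). A pairing of animals was therefore not told apart from a shared place on the slide. Alternatives were 75th percentile scaling, normexp with an offset of 50, the log2 table, probe filters and probe means, blocks for slide, tier and replicate number, array weights, fits of the groups compared alone, and each array left out in turn. Added after the data were seen were fits that kept probes missing on 1 array, left out the third control of both genotypes or both CCl4 arrays of the fourth column, or used the column as a block.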

Additional observations from a re-analysis of the deposited data

Results flagged for a closer look

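For the 27 members chosen by their response or lowest p, which leaves out Cdo1, 81 groups of 4 or 5 arrays were checked for an array far from the rest, and 7 were found, where chance marks about 1 group in 20. WT control 3 was apart for 3 genes, with Psat1 at 8.90 (others 7.73 to 7.87), Bckdha at 16.32 (others 16.53 to 16.57) and Ivd at 14.48 (others 14.77 to 14.80). WT CCl4 1 was apart for Phgdh at 10.74 (others 7.94 to 8.60). Lcn2-/- CCl4 1 was apart for Tat at 18.39 (others 17.13 to 17.31), Lcn2-/- CCl4 3 for Psph at 11.35 (others 11.71 to 11.74) and Lcn2-/- CCl4 4 for Afmid at 12.91 (others 13.70 to 13.79).

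Dbt was called in neither response, at -0.26 (adjusted p 0.278) in WT and 0.18 (adjusted p 0.538) in Lcn2-/-. Every WT CCl4 liver lay below the WT control mean and every Lcn2-/- CCl4 liver above the Lcn2-/- control mean, but the groups overlapped, and WT control 3 at 10.85 lay below every WT CCl4 liver. Without the third control of both genotypes the WT difference was -0.43 (adjusted p 0.0229), which was called. The difference of the responses was 0.44, and limma's test of it gave an adjusted p of 1.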

How the results depend on the processing

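Over 32 alternatives, single-gene values kept direction and side of the threshold in 1556 cases, no longer passed in 147, newly passed in 47 and reversed in 7. These are not all separate checks. Slide and tier as blocks was the same fit as slide alone. Tier as a block gave the same counts for both responses as leaving out WT CCl4 1. So did slide as a block for the comparisons of genotypes. The WT calls of Csad and Sds held in all 32. The WT count of 12 was 5 with slide or slide and tier as blocks and 19 with array weights, where 5.35% and 29% of all genes were called. The Lcn2-/- count of 9 was 1 with 75th percentile scaling, 2 with slide or slide and tier as blocks, 16 with array weights and 4 with only the groups compared, where 13.3%, 1.74%, 28.6% and 7.21% of all genes were called. Under CCl4 the genotype count of 2 was 1 with the mean of a gene's probes and 1 with only the groups compared, and in controls the count of 1 was 2 with array weights. Leaving out 1 array gave 6 to 14 calls in WT, 3 to 11 in Lcn2-/-, 2 to 3 between genotypes under CCl4, 1 to 2 in controls (2 without Lcn2-/- control 2) and 0 to 0 for the difference of the responses. Reversed WT values were Ftcd at -0.06, Aldh4a1 at -0.05 and Bckdha at -0.02 under 75th percentile scaling and Bckdha at -0.05 with slide or slide and tier as blocks. Amt in Lcn2-/- was 0.01 without both fourth-column arrays and ranged from -1.20 to 0.01 when 1 array was left out. With column on the slide as a block the counts were 14 in WT and 8 in Lcn2-/-, where 21.7% and 15.8% of all genes were called. With the replicate block the counts were 11 in WT, 8 in Lcn2-/-, 2 and 1 between genotypes and 0 for the difference of the responses. The controls, which the numbers were taken to pair, kept the call of Psph at -0.85. For the other contrasts the samples share only a number. For the controls a pairing was not told apart from a shared place on the slide. The cause of these shifts was not tested. Slide follows treatment in all CCl4 arrays but WT CCl4 1, and tier follows genotype in all arrays but the same one.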
